A study of Mus musculus with 15 samples.

Results

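SWI/SNF remodelers are followed here through 10 subunit genes, namely Smarcc1, Smarcc2, Smarca2, Smarca4, Smarcb1, Smarcd1, Smarcd2, Smarce1, Arid1a and Arid1b, among the 54418 Ensembl gene IDs of the count table. The genes were taken by Ensembl ID, and the list was chosen by a measured value, the lower CPM of Smarcc1 in the Met3 libraries than in the Met1 libraries (CPM are counts scaled to library size). That contrast is therefore given as a description without a test, and so is every comparison of Smarcc1 that uses Met3 or Met1 libraries. All 10 genes passed the filter on low counts that left 14925 genes to test. The libraries were poly(A)-selected RNA-seq of mouse colon cancer organoids (tumour epithelium grown as cell clusters in gel) of the genotype that the labels call AKP. Every group carries that genotype, and every group comes from C57Bl6 recipients with an intact immune system, in whose colons organoids were implanted and from which organoids were derived again, over 3 rounds. Met1, Met2 and Met3 are organoids from liver metastases of rounds 1, 2 and 3, and Primary2 and Primary3 are organoids from primary tumours of rounds 2 and 3, with 3 libraries (replicates, rep) in each of the 5 groups. A metastasis line thus passed through culture before each profile was taken, and the labels do not say whether replicates are separate mice, lines or cultures, so the p-values below measure only the spread between these libraries.

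SWI/SNF complexes, also called BAF complexes in mammals, use ATP to slide or evict nucleosomes and so open enhancers and promoters. Each complex holds one catalytic ATPase, Smarca4 (BRG1) or Smarca2 (BRM), together with scaffold subunits, among them Smarcc1 (BAF155), Smarcc2 (BAF170) and a Smarcd protein (BAF60). Smarcb1 (SNF5) and Smarce1 (BAF57) belong to the core of the canonical BAF and PBAF forms. The large Arid1a or Arid1b subunit marks the canonical BAF form, while Arid2, Pbrm1 and Brd7 mark the PBAF form and Brd9 the non-canonical form, which lacks Smarcb1 and Smarce1. Genes of these complexes are often mutated in human cancers, ARID1A in colorectal cancer among them.

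Total counts ran from 14122203 in Primary3 rep 1 to 21306543 in Primary2 rep 2, and one of the members, Smarca2, had as few as 3 counts in a library while Smarcd1 had at least 131 and the other 8 at least 240. One library, Met2 rep 1, stood apart from its group. It had 824 CPM of Krt8, an epithelial keratin, against 3568 and 4043 CPM in Met2 rep 2 and 3. Calls of members that change without Met2 rep 1 are given both ways. All 6 epithelial markers passed the filter. Their summed level was 6171 to 8673 CPM in Met1, 2768 to 7461 CPM in Met2 and 6232 to 8059 CPM in Met3. It was 3028 to 4360.2 CPM in Primary2 and 3398 to 4151 CPM in Primary3, so the sums of Met3 and Primary3 were apart. The single markers did not share one direction there. Krt8 (3065 to 4269 CPM in Met3, 1028 to 1159.7 CPM in Primary3), Krt18, Vil1 and Cdx2 were higher in Met3 without overlap. Epcam overlapped (894 to 970.1 CPM in Met3, 852 to 1059 CPM in Primary3). Cdh1 was lower in Met3 without overlap (323 to 395 CPM against 432 to 451 CPM). Summed fibroblast markers were at most 5.16 CPM (Met2 rep 1) and endothelial markers at most 0.514 CPM, with Kdr at 0 throughout. The leukocyte list summed to 16.2 to 23.7 CPM in Met3 and 3.71 to 11.8 CPM in Primary3, to 8.37 to 14.2 CPM in Met2 and 3.98 to 8.62 CPM in Primary2, and to 19.3 to 29.0 CPM in Met1. Nearly all of it was Cd68 (1 of 5 markers past the filter), while Adgre1 was at 0 in all libraries and Ptprc, the pan-leukocyte marker, at no more than 0.376 CPM. The hepatocyte list, of which 1 of 4 markers passed the filter, summed to at most 0.201 CPM in Met2 against 1.33 to 5.96 CPM in Met1, and to at most 0.806 CPM in the other groups. A ribosomal RNA gene, CT010467.1, took 6.24% to 7.52% of counts in Met2 against 3.74% to 3.83% in Primary2, and 3.38% to 4.09% in Met3 against 3.53% to 7.03% in Primary3, while Met1 had 2.01% to 3.73%. The part of these lists and of this gene in the results was not tested. In such bulk libraries a smaller number of cells with a transcript and less transcript per cell cannot be told apart.

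Positions are given on GRCm38 (mm10). Smarcc1 (ENSMUSG00000032481) spans chr9:110117708-110240178 on the plus strand, and Smarca4 (ENSMUSG00000032187) lies on the same chromosome at chr9:21616169-21704230, plus strand. Smarcc2 (ENSMUSG00000025369, chr10:128459248-128490482, plus) and Smarcb1 (ENSMUSG00000000902, chr10:75896769-75921617, minus) share chromosome 10. Smarcd2 (ENSMUSG00000078619, chr11:106263179-106272972, minus) and Smarce1 (ENSMUSG00000037935, chr11:99209047-99231017, minus) share chromosome 11. The remaining members are Smarca2 (ENSMUSG00000024921, chr19:26605050-26778322, plus), Smarcd1 (ENSMUSG00000023018, chr15:99702129-99713991, plus), Arid1a (ENSMUSG00000007880, chr4:133679008-133756769, minus) and Arid1b (ENSMUSG00000069729, chr17:4994332-5347656, plus).

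Promoters of 4 members are shown because they are the pairs on which the comparisons below turn: Smarcc1 with its paralog Smarcc2, which was called in no comparison, and Smarca4 with Smarcb1, the 2 members whose levels ran closest together. Each runs from 250 bases before to 50 bases after a transcript start of RefSeq on GRCm38.p6, written 5′ to 3′ on the strand of the gene. They are chr9:110131774-110132073 (Smarcc1, plus strand), chr10:128458986-128459285 (Smarcc2, plus), chr9:21615919-21616218 (Smarca4, plus) and chr10:75921565-75921864 (Smarcb1, minus). Capitals mark CCGGAAG, the core of the sites that ETS factors bind, found on either strand.
Smarcc1: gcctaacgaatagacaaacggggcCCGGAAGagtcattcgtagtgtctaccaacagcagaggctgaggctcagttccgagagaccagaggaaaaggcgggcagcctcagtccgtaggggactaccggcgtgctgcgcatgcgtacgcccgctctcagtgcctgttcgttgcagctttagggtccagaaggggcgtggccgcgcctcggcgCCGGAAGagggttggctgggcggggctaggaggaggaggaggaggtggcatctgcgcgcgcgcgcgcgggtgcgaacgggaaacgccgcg
Smarcc2: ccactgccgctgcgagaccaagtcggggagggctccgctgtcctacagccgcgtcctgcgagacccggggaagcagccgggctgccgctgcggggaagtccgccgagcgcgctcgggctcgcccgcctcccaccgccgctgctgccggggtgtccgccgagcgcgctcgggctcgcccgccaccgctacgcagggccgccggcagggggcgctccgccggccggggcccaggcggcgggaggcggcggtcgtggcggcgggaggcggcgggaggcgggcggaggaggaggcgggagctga
Smarca4: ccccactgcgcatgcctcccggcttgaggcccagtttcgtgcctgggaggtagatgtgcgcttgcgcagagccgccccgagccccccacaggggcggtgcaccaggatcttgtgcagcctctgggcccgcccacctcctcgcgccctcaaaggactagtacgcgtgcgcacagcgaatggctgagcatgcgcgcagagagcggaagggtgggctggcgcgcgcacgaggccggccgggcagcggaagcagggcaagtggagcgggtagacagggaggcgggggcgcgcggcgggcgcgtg
Smarcb1: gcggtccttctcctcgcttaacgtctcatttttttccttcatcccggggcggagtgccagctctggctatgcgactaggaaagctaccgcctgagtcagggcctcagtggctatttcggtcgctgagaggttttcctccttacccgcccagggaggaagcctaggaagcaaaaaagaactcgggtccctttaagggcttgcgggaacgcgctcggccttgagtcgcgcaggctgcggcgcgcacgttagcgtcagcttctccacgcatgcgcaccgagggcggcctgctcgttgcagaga
The RefSeq start of Smarcc1 lies inside the gene span that GENCODE gives. The Smarcc1 window holds CCGGAAG at 2 places and the other 3 windows hold none. RefSeq promoters were matched for 9 of the 10 members (Smarce1 was not matched), with a second window for Arid1a, so 10 windows were searched. CCGGAAG, read on both strands, was found in those of Smarcc1 and Smarca2 and in 8.86% of all 32851 windows of that length. The GC box GGGCGG was found in all 10 member windows and in 35.7% of all windows. AGATAA or TGATAA, letters that GATA factors bind, occurred in 1 of the Arid1a windows and in 18.6% of all windows. CACGTG (E-box, 7.15% of all windows) and TGACGTCA (CRE, 1.79%) occurred in none of the 10. The motifs share no letters with each other in the printed capitals. In GC content the Smarcc1 window had 66.0% and the Smarcc2 window 81.0%, against a median of 52.7% over all windows. These matches describe letters only and say nothing about whether a factor was bound.

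Per kilobase of merged exon, over all 15 libraries, the mean levels ran from 25.8 CPM per kb for Smarce1, 19.9 for Smarca4 and 18.9 for Smarcd2 down to 2.07 for Arid1b and 0.421 for Smarca2. In between stood Smarcc2 at 11.4, Smarcc1 at 8.52, Smarcb1 at 5.10, Arid1a at 3.28 and Smarcd1 at 3.04 CPM per kb. Smarca4 was thus the more abundant ATPase on this scale in every group, at 15 to 26.2 CPM per kb against 0.227 to 0.686 CPM per kb for Smarca2. Merged exons join all annotated transcripts of a gene, so the order of the members depends on the annotation as well as on the counts. Across libraries Smarcd2 varied least, with its highest library 1.33 times its lowest, and Smarca2 varied most, with a ratio of 108.

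**Figure D1:**
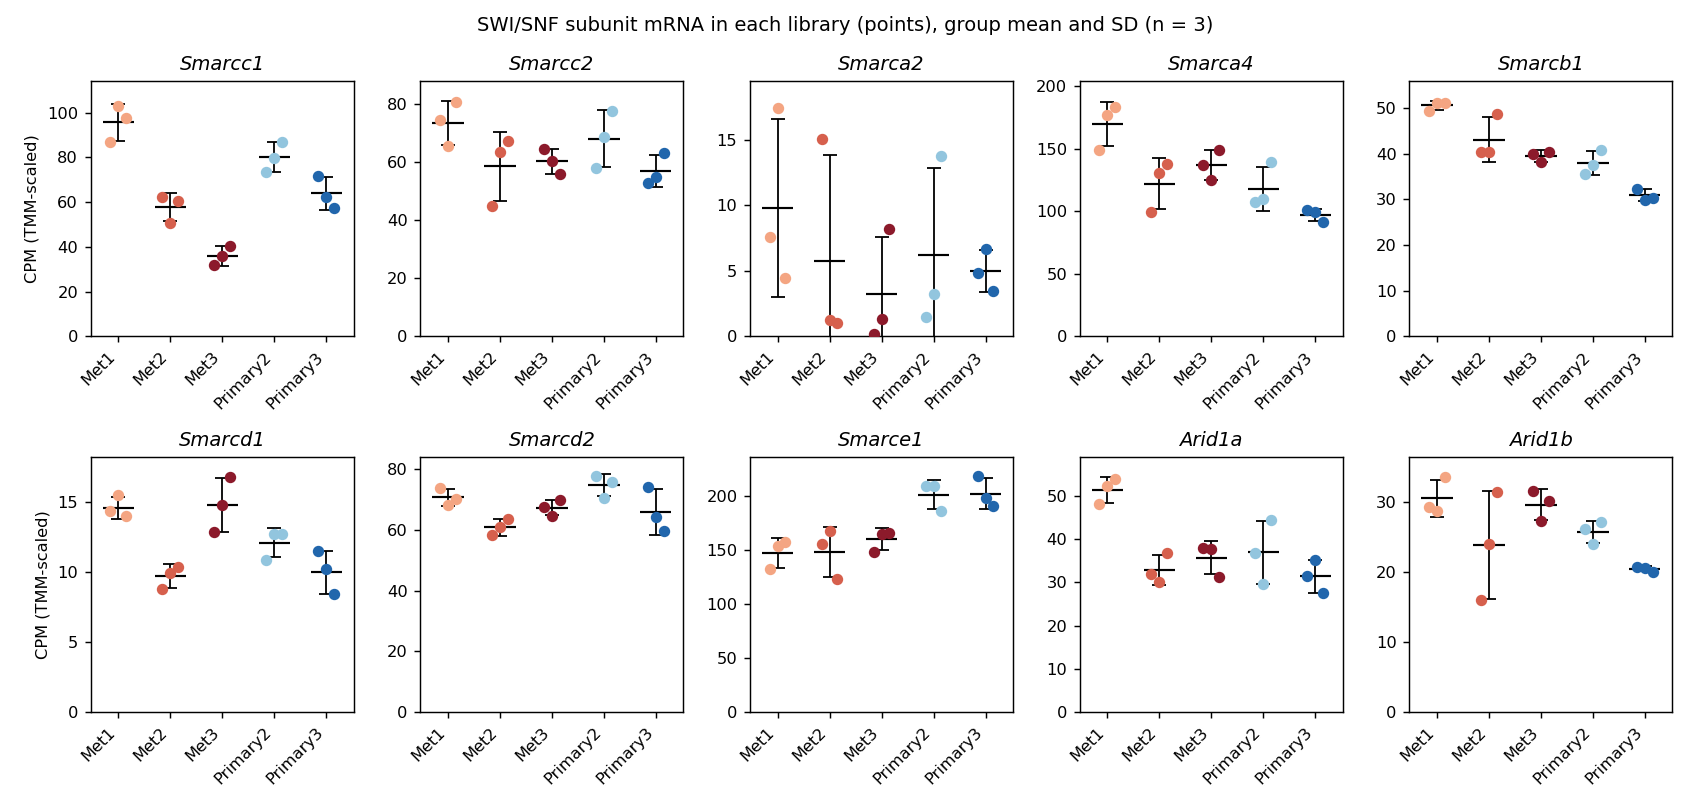
Level of each of the 10 subunit genes in CPM (vertical axis, TMM-scaled, from 0) in the 5 groups (horizontal axis). Points are the 3 libraries of a group, the line is the group mean and the bar its SD, with bars that would pass below 0 cut there; Smarcc1 is at 31.7 to 40.5 CPM in Met3 and 86.7 to 103 CPM in Met1, and Smarce1 is lower in all metastasis libraries than in all primary libraries.

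Smarcc1, a scaffold subunit on which the core assembles, was lower in metastasis organoids than in primary tumour organoids of the same round. In round 2 it had 62.5, 50.8 and 60.7 CPM in Met2 and 73.4, 79.9 and 87.0 CPM in Primary2, with no overlap between the groups. The fitted log2 change was -0.47 (SE 0.13, a ratio of 0.724, 3 libraries a side, adjusted p = 0.0386 by the quasi-likelihood test of edgeR over all 14925 genes). The Met1 and Met3 libraries behind the choice of the list are on neither side of this comparison, but they enter the fit and its estimate of the spread. In a fit of the Met2 and Primary2 libraries alone the change was -0.43 and was not called (adjusted p = 0.146). Smarcc1 passed the threshold, an adjusted p under 0.05, narrowly: the call was lost under 11 of 22 alternative settings, with that fit giving the highest adjusted p. Among single libraries, adjusted p became 0.0567, 0.0875 and 0.128 without Primary2 rep 1, 2 or 3, 0.134 and 0.0831 without Met2 rep 2 or 3, 0.0527 without Met1 rep 3, 0.057 without Primary3 rep 2 and 0.0512 without Met3 rep 2, while the log2 change stayed between -0.53 and -0.36.

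In the other comparisons of Smarcc1 the libraries that chose it take part, so the values are a description. Met3 had 31.7, 35.8 and 40.5 CPM, against 71.9, 62.5 and 57.6 CPM in Primary3, a fitted log2 difference of -0.83 that ranged from -0.92 to -0.71 over the alternatives. Every Met3 library was below every other library of the series. Over the rounds of metastasis, Smarcc1 averaged 95.7 ± 8.32 CPM in Met1, 58.0 ± 6.30 CPM in Met2 and 36.0 ± 4.42 CPM in Met3 (SD, n = 3 each). The log2 difference was -0.72 for Met2 against Met1, -0.69 for Met3 against Met2 and -1.41 for Met3 against Met1. The groups stood in the order Met1, Primary2, Primary3, Met2, Met3, and of the neighbours in that order Met1 and Primary2 overlapped (lowest Met1 library 86.7 CPM, highest Primary2 library 87.0 CPM), as did Primary3 and Met2. Between the primary groups Smarcc1 had 71.9, 62.5 and 57.6 CPM in Primary3 against 73.4, 79.9 and 87.0 CPM in Primary2, a log2 change of -0.32 (SE 0.13) that was not called by edgeR (adjusted p = 0.646).

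Smarcc2, the paralog that fills the other Smarcc place in the complex, was called in none of the 7 comparisons tested. It had 44.9, 63.4 and 67.4 CPM in Met2 and 58.1, 68.6 and 77.7 CPM in Primary2, and 64.6, 60.3 and 56.0 CPM in Met3 against 52.8, 54.9 and 63.2 CPM in Primary3. The groups overlapped in both rounds, with log2 changes of -0.22 (SE 0.16, -0.06 without Met2 rep 1) in round 2 and 0.08 (SE 0.16) in round 3. As a ratio within each library, which no scaling of libraries can alter, log2 of Smarcc1 over Smarcc2 was -1.03, -0.75 and -0.47 in Met3 and 0.45, 0.19 and -0.14 in Primary3. In round 2 it was 0.48, -0.32 and -0.15 in Met2 against 0.34, 0.22 and 0.16 in Primary2, with Met2 rep 1 above all 3 primary libraries. Met3 was thus the only group in which Smarcc1 had fewer counts than Smarcc2 in every library.

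Smarce1, the HMG-box subunit of the core, fell in metastasis organoids when both rounds were pooled (the mean of Met2 and Met3 against the mean of Primary2 and Primary3). It had 155, 167 and 123 CPM in Met2 and 148, 165 and 166 CPM in Met3, against 209, 209 and 186 CPM in Primary2 and 218, 198 and 191 CPM in Primary3. All 6 metastasis libraries lay below all 6 primary libraries, as did the libraries of 7.69% of all tested genes. The pooled log2 change was -0.39 (SE 0.09, adjusted p = 0.00541 in edgeR), and it was called under all 22 alternatives, with adjusted p between 0.000355 and 0.0296. The change was -0.44 (SE 0.12, adjusted p = 0.0379) for Met2 against Primary2 and -0.34 (SE 0.12, adjusted p = 0.0706, not called, 0.0457 in DESeq2) for Met3 against Primary3, and the difference between rounds was 0.10 (SE 0.17, adjusted p = 0.848). The round 2 call was lost under 9 of 22 alternatives: adjusted p was 0.101, 0.103 and 0.0605 without Primary2 rep 1, 2 or 3, 0.166 without Met2 rep 3, 0.0562 and 0.0528 without Primary3 rep 2 or 3 and 0.0661 without Met3 rep 1. Met1, at 132, 154 and 157 CPM, was also below all primary libraries, and Smarce1 did not differ detectably between Met2 and Met1 (log2 change 0.01, SE 0.12).

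Smarcb1, a core subunit whose loss defines human rhabdoid tumours, moved the other way. It had 40.0, 38.1 and 40.4 CPM in Met3 against 32.3, 29.9 and 30.3 CPM in Primary3, without overlap, and 40.3, 40.4 and 48.7 CPM in Met2 against 35.6, 37.6 and 40.8 CPM in Primary2, with overlap. Smarcb1 was higher in Met3 than in Primary3, with a log2 change of 0.36 (SE 0.10, adjusted p = 0.0277 in edgeR). In the pooled comparison the change was 0.27 (SE 0.07, adjusted p = 0.013). The 0.18 of Met2 against Primary2 (SE 0.10) was not called (adjusted p = 0.254). Met1 had 49.4, 51.2 and 51.2 CPM, above all Met3 libraries, and the Met3 libraries overlapped those of Primary2. The pooled call was kept under 21 of 22 alternatives and lost with no filter on low counts (adjusted p = 0.139). The round 3 call was lost under 6, with adjusted p of 0.0936 and 0.0965 without Primary3 rep 2 or 3, and of 0.0559, 0.0511 and 0.0642 without Met3 rep 1, 2 or 3.

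The Smarcd pair, alternative BAF60 subunits that link the complex to transcription factors, did not keep one direction. Smarcd1 had 12.9, 14.8 and 16.8 CPM in Met3 against 11.5, 10.2 and 8.42 CPM in Primary3, but 8.78, 9.93 and 10.4 CPM in Met2 against 10.9, 12.7 and 12.7 CPM in Primary2. The groups of each round were apart, Met3 above its primaries and Met2 below its own. Smarcd1 rose by 0.56 in Met3 (SE 0.16, adjusted p = 0.0314 in edgeR), while the -0.32 of Met2 (SE 0.16, adjusted p = 0.221) was not called, and the difference between rounds of 0.88 (SE 0.23) was not called either (adjusted p = 0.263). DESeq2 called that difference (adjusted p = 0.0232). The round 3 call was lost under 6 alternatives, among them the fits without Primary3 rep 2 (adjusted p = 0.0829), Primary3 rep 3 (0.132), Met3 rep 2 (0.0719) and Met3 rep 3 (0.0984). Smarcd2 had 58.2, 60.8 and 63.5 CPM in Met2 and 77.6, 70.6 and 75.8 CPM in Primary2, again apart, with a log2 change of -0.30 (SE 0.10) that missed the threshold (adjusted p = 0.0666) and was called by DESeq2 (0.0195) and without Primary3 rep 1 (0.0494). In round 3 it had 67.4, 64.7 and 69.7 CPM in Met3 and 74.1, 64.1 and 59.5 CPM in Primary3 (log2 change 0.03, SE 0.10).

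Of the ATPases, Smarca4 was higher in Met3 than in Primary3. It had 137, 125 and 149 CPM in Met3 against 101, 99.1 and 91.6 CPM in Primary3, with no overlap. In round 2 it had 99.5, 130.4 and 138 CPM in Met2 against 107, 109.5 and 139 CPM in Primary2, where the groups overlapped. Its highest group mean was that of Met1, at 149, 177 and 183 CPM. Its log2 change was 0.50 in round 3 (SE 0.14, adjusted p = 0.0311 in edgeR), 0.05 in round 2 (SE 0.14, 0.18 without Met2 rep 1) and 0.27 in the pooled comparison (SE 0.10, adjusted p = 0.0592). Without Met2 rep 1 the pooled change was 0.34 and was called (adjusted p = 0.0145), as it was without Primary2 rep 3 (0.0291), with RLE size factors (0.0482) and with DESeq2 (0.0262). The round 3 call was lost under 6 alternatives, with adjusted p of 0.0631, 0.0765 and 0.112 without Primary3 rep 1, 2 or 3, and of 0.0634 and 0.0874 without Met3 rep 1 or 3. Smarca2, the other ATPase, was uneven within groups. It had 15.1, 1.22 and 1.03 CPM in Met2, 0.162, 1.33 and 8.23 CPM in Met3, 1.5, 3.24 and 13.8 CPM in Primary2 and 4.85, 6.68 and 3.48 CPM in Primary3. The pooled log2 change of Smarca2 was -0.36 with an SE of 0.86 (-1.54 without Met2 rep 1, adjusted p = 0.163), so a change of several-fold in either direction was not detectable with these libraries.

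The ARID subunits, which carry DNA-binding domains and hold the canonical BAF form together, were called in no same-round comparison. Arid1a had 38.0, 37.7 and 31.3 CPM in Met3 against 31.4, 35.2 and 27.6 CPM in Primary3, and 31.9, 30.0 and 36.8 CPM in Met2 against 36.8, 29.7 and 44.4 CPM in Primary2. Both rounds overlapped, with log2 changes of 0.18 and -0.17 (SE 0.15 each). Arid1b had 31.6, 27.3 and 30.2 CPM in Met3 against 20.8, 20.6 and 20.1 CPM in Primary3, and 16.1, 24.0 and 31.5 CPM in Met2 against 26.2, 24.1 and 27.2 CPM in Primary2. In Met3 all 3 libraries were above Primary3, with a log2 change of 0.54 (SE 0.19) that missed the threshold in edgeR (adjusted p = 0.0617) and was called by DESeq2 (0.0284), with only the groups compared (0.0166), without Met2 rep 1 (0.00984) and without Met2 rep 3 (0.0203). In Met2 against Primary2 the log2 change of Arid1b was -0.12, and 0.10 without Met2 rep 1, neither of them called. In the pooled comparison Arid1b was called without Met2 rep 1 (log2 change 0.32, adjusted p = 0.0198), against a log2 change of 0.21 and an adjusted p of 0.247 with it.

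Counted over the list, 2 of 10 members were called in Met2 against Primary2, none higher and 2 lower (Smarcc1 and Smarce1), beside 11.8% of all tested genes in either direction and 6.35% lower. Members with no overlap between the libraries of the 2 groups numbered 4, all lower (Smarcc1, Smarcd1, Smarcd2 and Smarce1), where 29.6% of all genes did not overlap and 16.9% were lower without overlap. In Met3 against Primary3, where Smarcc1 is not tested, 3 of the 9 others were called, all higher (Smarca4, Smarcb1 and Smarcd1), beside 19.1% of all genes in either direction and 8.12% higher. Of the 9, Smarca4, Smarcb1, Smarcd1 and Arid1b were higher and Smarce1 was lower without overlap, beside 44.4% of all genes. In the pooled comparison 2 of 9 were called, Smarcb1 higher and Smarce1 lower, beside 30.4% of all genes, so the share there was not above that of genes at large. For the 9 others, the round 3 and pooled comparisons share the Met3 libraries with the contrast behind the list. Met2 against Primary2 has no Met3 or Met1 library on either side, though these enter its fit. The median log2 change of the 9 was -0.17 in round 2 and 0.18 in round 3. The medians of all tested genes were 0.02 and 0.00.

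**Figure D2:**
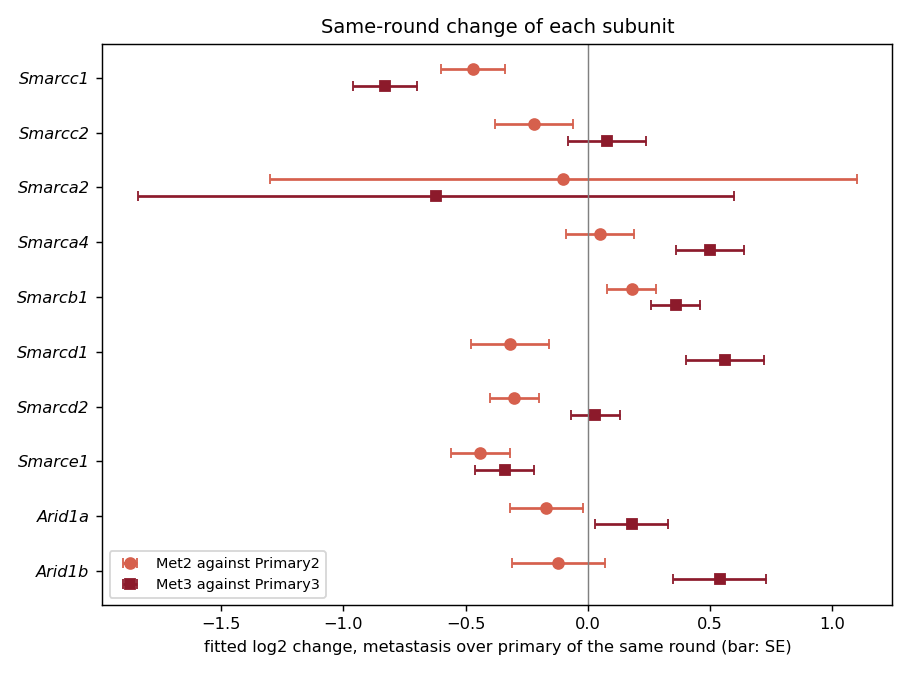
Fitted log2 change of each subunit gene, metastasis over primary of the same round, with its SE as a bar (horizontal axis, 3 libraries a side). Circles are Met2 against Primary2 and squares Met3 against Primary3; Smarcc1 and Smarce1 lie left of 0 in both rounds, Smarcb1 lies right of 0 in both, Smarcd1 lies left in round 2 and right in round 3, and the bars of Smarca2 are the widest. The Smarcc1 value for Met3 is a description.

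Whether the change in round 3 differed from that in round 2 was tested directly. None of the 9 members other than Smarcc1 was called, nor was any gene (0% of 14925, with 1817 genes at an unadjusted p under 0.05). Of the 9, Smarca4 (difference 0.45, SE 0.20), Smarcd1 (0.88, SE 0.23), Smarcd2 (0.33, SE 0.14) and Arid1b (0.65, SE 0.26) were under an unadjusted p of 0.05, all in the positive direction. DESeq2 called 224 genes, and of the 9 members Smarcd1.

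The primary groups, which are 1 round apart, were compared as well. No member was called in Primary3 against Primary2 by edgeR, beside 0% of all genes, with 1063 genes and 2 members (Smarcc1 and Smarcb1) at an unadjusted p under 0.05, and DESeq2 called 43 genes and no member. Of the 10 members, 9 had a negative log2 change, and their median was -0.28, beside -0.01 over all tested genes. Smarcb1 had 32.3, 29.9 and 30.3 CPM in Primary3 against 35.6, 37.6 and 40.8 CPM in Primary2 (log2 change -0.30, SE 0.10, adjusted p = 0.636). Together with Smarcc1, Smarca4 and Arid1b it made 4 members that were lower in all Primary3 libraries, beside 8.25% of all genes. The round 3 changes of Smarca4, Smarcb1 and Arid1b given above are set against these Primary3 libraries.

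Between metastasis rounds, 3 of the 9 members other than Smarcc1 were lower in Met2 than in Met1 (Arid1a, Smarca4 and Smarcd1) and none was higher, beside 16.3% of all genes called in either direction and 7.57% lower. Arid1a had 31.9, 30.0 and 36.8 CPM in Met2 against 48.1, 52.2 and 53.9 CPM in Met1, a log2 change of -0.64 (SE 0.15, adjusted p = 0.0178 in edgeR). Smarca4 had 99.5, 130.4 and 138 CPM in Met2 against 149, 177 and 183 CPM in Met1, a change of -0.47 (SE 0.14, adjusted p = 0.043). Smarcd1 had 8.78, 9.93 and 10.4 CPM in Met2 against 14.4, 15.5 and 14 CPM in Met1, a change of -0.59 (SE 0.16, adjusted p = 0.0307). The groups were apart in each of these 3 genes, and also in Smarcc1, Smarcb1 and Smarcd2. The share of all tested genes that were apart between Met2 and Met1 is not given here, so this is a description only. Only Arid1a stayed called without Met2 rep 1, where adjusted p was 0.11 for Smarca4 and 0.0696 for Smarcd1. The Arid1a call was lost under 3 alternatives: with only the groups compared (adjusted p = 0.0726), without Met1 rep 2 (0.0647) and without Met2 rep 2 (0.05). The Smarca4 call was lost under 11 alternatives, with adjusted p of 0.131 and 0.117 without Met1 rep 2 or 3, 0.0575 without Met2 rep 2, and from 0.0539 to 0.061 without Primary2 rep 2, any of the Primary3 libraries or Met3 rep 1. The Smarcd1 call was lost under 8, with adjusted p between 0.0523 and 0.104 when any of the Met1 or Met2 libraries was left out. Arid1b, not called with all libraries (log2 change -0.36, SE 0.19, adjusted p = 0.201), was called without Met2 rep 3 (0.0384).

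In Met3 against Met2 none of the 9 was called, where 0.275% of all genes were, with 1 of the 9 (Smarcd1) at an unadjusted p under 0.05. Smarcd1 had 12.9, 14.8 and 16.8 CPM in Met3 against 8.78, 9.93 and 10.4 CPM in Met2, a log2 change of 0.61 (SE 0.16, adjusted p = 0.137 in edgeR, 0.0135 in DESeq2). Across Met1, Met2 and Met3 its means were 14.6 ± 0.771, 9.71 ± 0.844 and 14.8 ± 1.95 CPM (SD, n = 3 each), so Met3 stood at the level of Met1. The highest group mean was that of Met1 for 7 of the 10 members, while Smarcd1 was highest in Met3, Smarcd2 in Primary2 and Smarce1 in Primary3.

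Ratios of paralogs that take the same place in the complex were compared within libraries, 6 metastasis libraries of rounds 2 and 3 against 6 primary libraries, by exact two-sided permutation tests adjusted over the 3 ratios (the smallest p the design allows is 0.00216). Log2 of Smarca4 over Smarca2 averaged 6.16 ± 2.44 in metastasis and 4.59 ± 0.98 in primary libraries (SD, n = 6 each, exact p = 0.171, adjusted 0.256), higher than the primary mean in 4 of 6. Log2 of Arid1a over Arid1b averaged 0.39 ± 0.32 in metastasis and 0.55 ± 0.17 in primary libraries (exact p = 0.284, adjusted 0.284). For Smarcd1 over Smarcd2 the values were -2.42 ± 0.28 in metastasis and -2.67 ± 0.14 in primary libraries (exact p = 0.0779, adjusted 0.234), higher than the primary mean in 5 of 6. None passed with all libraries. Without Met2 rep 1 each of the 3 had an adjusted exact p of 0.0346, with differences of 2.26, -0.29 and 0.32.

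**Figure D3:**
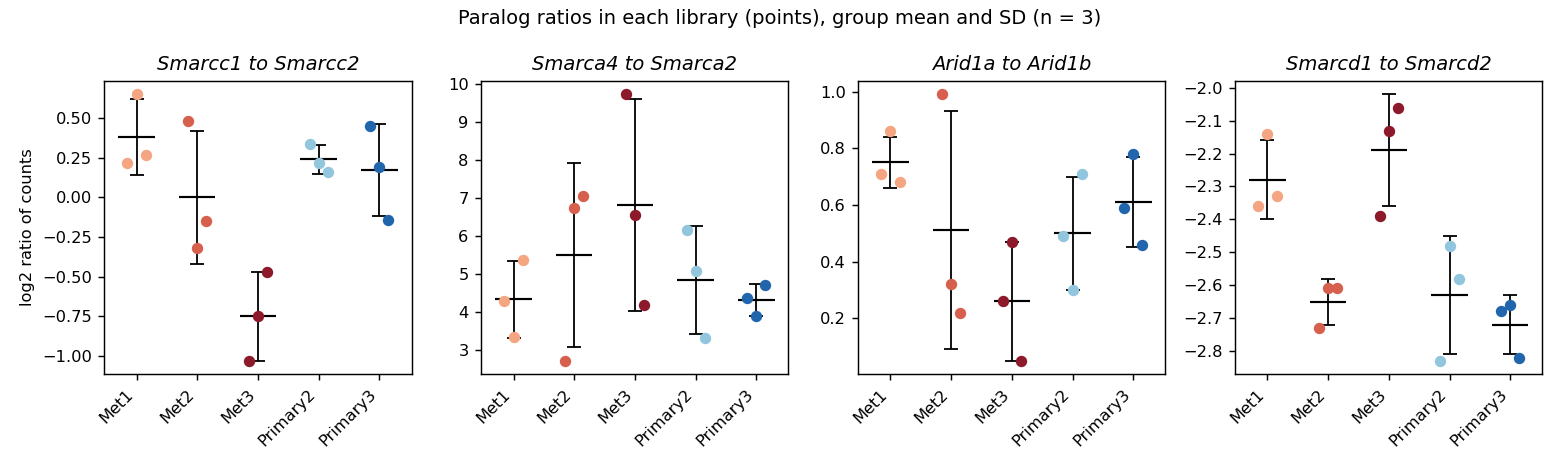
Log2 ratio of the counts of paired subunit paralogs (vertical axes, each on its own scale) in the 5 groups (horizontal axis). Points are the 3 libraries of a group, lines group means and bars SD; the Smarcc1 to Smarcc2 ratio is below 0 in all 3 Met3 libraries, and Met2 rep 1 (the left point of Met2) lies away from Met2 rep 2 and 3 in the first 3 panels.

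Over the 15 libraries the members fell into different patterns, given here as Pearson correlations of log2 CPM that share libraries and groups. Smarca4 ran closest to Smarcb1 (0.88) and Arid1b (0.84), then to Arid1a (0.78) and Smarcd1 (0.74). Smarce1 ran against Smarcb1 (-0.78) and Smarca4 (-0.61). Smarcc1 correlated with none of the other 9 by more than 0.60 (Smarca2), and with Smarca4 by 0.21.

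Of 21 further SWI/SNF subunits, 17 passed the filter and Actl6b, Dpf1, Dpf3 and Bcl11a did not. In the pooled comparison 3 of the 17 rose and 5 fell, beside 30.4% of all tested genes called in either direction. Ss18, a subunit of the BAF forms that is fused in human synovial sarcoma, had 102, 107 and 97.6 CPM in Met2 and 90.8, 95.0 and 108 CPM in Met3, against 206, 166 and 158 CPM in Primary2 and 186, 159 and 161 CPM in Primary3. All metastasis libraries were lower, with log2 changes of -0.79 in round 2 (SE 0.12, adjusted p = 0.00298 in edgeR) and -0.78 in round 3 (SE 0.12, adjusted p = 0.00168). Brd7, a bromodomain subunit of PBAF, also fell in both rounds, by 0.45 (SE 0.12, adjusted p = 0.0292) and 0.61 (SE 0.12, adjusted p = 0.00552). Pbrm1, the polybromo subunit of PBAF, fell in Met2, to 53.6 ± 5.11 CPM against 80.0 ± 6.34 CPM in Primary2 (log2 change -0.58, SE 0.12, adjusted p = 0.0113), and had 58.8 ± 8.03 CPM in Met3 against 64.0 ± 4.04 CPM in Primary3, which was not called (SD, n = 3 each).

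Brd9, the bromodomain subunit of the non-canonical form, rose in Met3 to 54.4 ± 1.34 CPM against 36.9 ± 5.29 CPM in Primary3 (SD, n = 3 each, log2 change 0.56, SE 0.14, adjusted p = 0.0158), and Actb, the actin shared with the cytoskeleton, rose there by 0.43 (SE 0.10, adjusted p = 0.0098). Bcl7b rose in the pooled comparison (log2 change 0.70, SE 0.19, adjusted p = 0.0134), where the libraries of both sides overlapped. By round it was not called in edgeR (adjusted p = 0.0896 in round 2 and 0.0871 in round 3). Met2 rep 1 had 71.7 CPM of Bcl7b, against 30.6 and 46.5 CPM in Met2 rep 2 and 3. A fit of Bcl7b without that library is not given here. Smarcd3, the third BAF60 paralog, and the transcription factor Bcl11b fell in it by 2.57 (SE 0.85, adjusted p = 0.0377) and 1.98 (SE 0.70, adjusted p = 0.0483), from low levels: Smarcd3 held 32 counts over the 6 metastasis libraries and 208 over the 6 primary ones. By round, 0 of the 17 rose and 3 fell in Met2, and 2 rose and 2 fell in Met3, beside 11.8% and 19.1% of all tested genes called. The median of the 17 was -0.05 in the pooled comparison, beside 0.01 over all genes.

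The 5 genes whose log2 CPM ran closest to that of Smarcc1 over the 15 libraries, among genes averaging 4 or more in log2 CPM, were Clasp2 (Pearson r = 0.971), Xrn1 (0.963), Dcaf1 (0.948), Rad54l2 (0.943) and Slc38a1 (0.942). Clasp2, Xrn1, Dcaf1 and Rad54l2 lie on chromosome 9, as Smarcc1 does, at 3.62, 14.2, 3.30 and 3.43 Mb from it. Slc38a1 lies on chromosome 15. The share of all tested genes that lie on chromosome 9 is not given here. The 15 libraries include the Met1 and Met3 libraries behind the choice of the list, so this ranking is a description only. Clasp2 averaged 27.1 ± 1.11 CPM in Met1, 17.1 ± 3.49 CPM in Met2 and 11.5 ± 1.67 CPM in Met3, and 22.8 ± 1.29 CPM in Primary2 and 19.5 ± 1.03 CPM in Primary3 (SD, n = 3 each).

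Most neighbours of Smarcc1 had lower levels in Met3 than in Primary3. Of 22 tested protein-coding genes within 1 Mb, 20 had a negative log2 change in Met3 against Primary3, 6 were called lower and 0 higher, and their median was -0.46, beside 0.00 over all tested genes and 11% of them called lower. Dhx30, an RNA helicase gene, is the next gene below, and its annotated span overlaps the annotated start of Smarcc1. Dhx30 had 23.0 ± 1.70 CPM in Met3 and 41.9 ± 5.64 CPM in Primary3 (SD, n = 3 each). It fell by 0.87 (SE 0.13, adjusted p = 0.00176 in edgeR), with reads in the shared bases open to either gene. Next to it Map4, a microtubule-binding protein, fell by 0.59 (SE 0.16, adjusted p = 0.0238), while the log2 change of Cdc25a, a cell cycle phosphatase, was -0.39 (SE 0.16, adjusted p = 0.0941). On the other side Elp6, Scap and Ptpn23 had log2 changes of -0.36 (SE 0.26), -0.37 (SE 0.16) and -0.44 (SE 0.28), none of them called.

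In round 2 none of these neighbours was called. Their median log2 change in Met2 against Primary2 was 0.13, and 8 of 22 were negative, where Smarcc1 itself had -0.47. Dhx30 had -0.32 there (SE 0.13, adjusted p = 0.131) and Map4 -0.08 (SE 0.16). Along the chromosome, genes from about 22 Mb before Smarcc1 to the end had a median of -0.45 in Met3 against Primary3, with 192 of 252 negative, 78 called lower and 12 higher, a boundary that was chosen after the values were seen. On the remainder of the chromosome the median was 0.34, with 128 of 453 genes called higher and 28 lower. In Met2 against Primary2 the medians were 0.21 and 0.22 on these 2 stretches.

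**Figure D4:**
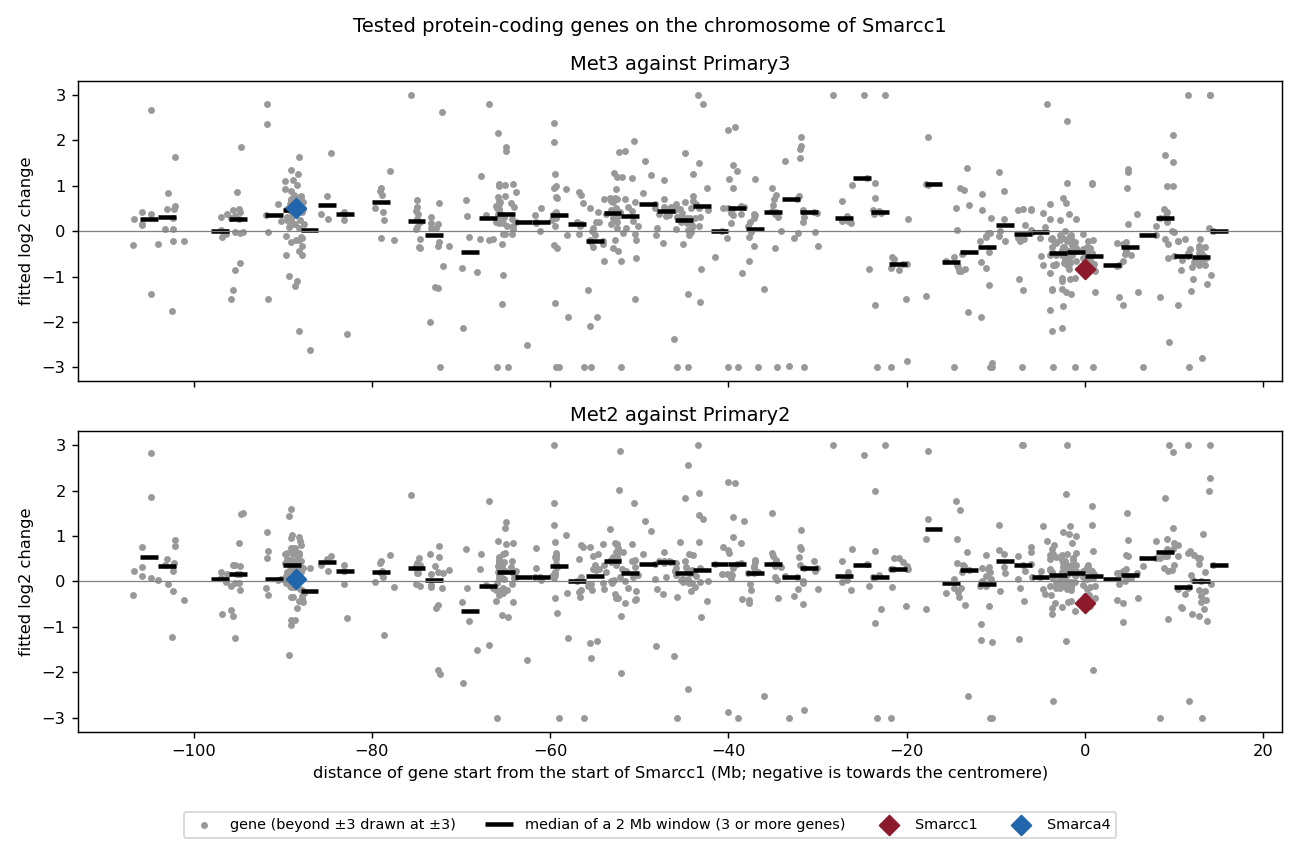
Fitted log2 change (vertical axes) of the tested protein-coding genes on the chromosome of Smarcc1 against distance from the start of Smarcc1 in Mb (horizontal axis), for Met3 against Primary3 above and Met2 against Primary2 below. Dots are genes, black bars medians of 2 Mb windows with 3 or more genes and diamonds Smarcc1 and Smarca4; above, the windows around Smarcc1 lie below 0 (median of the 1 Mb neighbours -0.46) and those around Smarca4 above 0 (0.47), while below the neighbours of Smarcc1 have a median of 0.13.

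Smarca4 lies on that remainder. Of the 58 tested genes within 1 Mb of it 19 were called higher and 1 lower in Met3 against Primary3, beside 8.12% of all genes higher. Their median was 0.47, next to 0.50 for Smarca4. In Met2 against Primary2 9 of the 58 were called higher and 0 lower, beside 11.8% of all genes in either direction. Their median there was 0.33, where Smarca4 had 0.05. The 42 neighbours of Smarce1 had a median of 0.06 in the pooled comparison, where Smarce1 had -0.39, and the 21 of Smarcb1 a median of 0.11, where Smarcb1 had 0.27. For Smarcd1, at 0.56 in Met3 against Primary3, the median of 42 neighbours was 0.11. Smarcd2 had -0.30 in Met2 against Primary2, and its 24 neighbours had a median of -0.30, with 21 negative. In Met3 against Primary3 these 24 had a median of -0.22, where Smarcd2 had 0.03. The part of chromosomal position in the values of the members was not tested.

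Proliferation genes (Mki67, Top2a, Pcna, Mcm2, Ccnb1 and Cdk1) were measured beside the subunits. In Met2 against Primary2 1 of the 6 was called, lower (Top2a, log2 change -0.71, SE 0.17, adjusted p = 0.023 in edgeR). Of all tested genes 11.8% were called there in either direction and 6.35% lower. The median of the 6 was -0.38. In Met3 against Primary3 0 of the 6 were called, beside 19.1% of all tested genes in either direction. No gene of the list had an unadjusted p under 0.05 there other than Ccnb1 (0.0171), and the median was 0.09. The part of proliferation in the round 2 values of the subunits was not tested.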

How the data were processed

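RNA-seq libraries of 15 organoid samples were grouped by the sample titles. Per the submitters' processing notes the authors used Salmon 1.3.0 on mm10, and deposited estimated counts per gene, all whole numbers, for 54418 gene IDs. The summing of transcripts to genes, the use of strand and the handling of reads that match paralogs are not stated. Names, positions and exon lengths came from GENCODE M21 (GRCm38), which matched 54166 IDs; the other 252 hold 0.00577% of counts.

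The counts were tested with edgeR 4.0.16 under R 4.3.3 (TMM scaling, filterByExpr, quasi-likelihood fit and F test, all 15 libraries in one fit). The filter left 14925 genes, which hold 99.9% of counts, and dropped 39493. Replicates varied by a coefficient of 0.343 (common dispersion 0.118). P-values were adjusted by Benjamini-Hochberg over all tested genes, and genes were called at an adjusted p under 0.05. Each SE was obtained from the fitted change and its F statistic. CPM values use TMM-scaled library sizes, and correlations add 0.5 CPM before the log2. Paralog ratios used raw counts, with 0.5 counts added as an alternative. Paralog ratios were tested with SciPy 1.17.1. Fits were tested on simulated data. Alternatives were RLE size factors, no filter, CPM of at least 1 in 3 libraries, DESeq2 1.42.0, limma-voom 3.58.1, only the groups compared, the replicate number as a block, and each library left out.

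The members, lists and tests were chosen with earlier results of these data known. Named genes are the members, every further subunit past the test in a same-round or pooled comparison, up to 3 genes of each list of other remodelers with the smallest p, the 5 genes most like Smarcc1 and its 3 nearest tested genes on each side. No 2 libraries were duplicates (highest correlation 0.9854).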

Additional observations from a re-analysis of the deposited data

How the results depend on the processing

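Of 1430 member log2 changes recomputed under the 22 alternatives, 1353 kept their side of the threshold, 61 were no longer called, 16 became called and 0 called changes reversed, while 32 changes that were called in neither setting changed sign. In Met2 against Primary2 the count of members called, 2, was 0 with no filter, 0 with only the groups compared, 1 with the replicate block and 0 to 3 when a library was left out. In Met3 against Primary3 the count of 3 was 0 with no filter, 5 with DESeq2 and 0 to 4 with a library left out. In the pooled comparison the count of 2 was 1 with no filter and 2 to 4 with a library left out. In Met2 against Met1 the count of 3 was 1 with no filter, 0 with only the groups compared and 0 to 3 with a library left out. DESeq2 called 1 member in Met3 against Met2 and 1 in the difference between rounds, where edgeR called 0. The cause was not tested. Leaving out a library gave differences of 0.86 to 2.26 for the log2 ratio of Smarca4 to Smarca2, -0.289 to -0.102 for Arid1a to Arid1b and 0.181 to 0.315 for Smarcd1 to Smarcd2. Fits with only the groups compared hold fewer libraries.

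The main fit did not pair libraries by replicate number. Over 30 same-numbered pairs the correlation of deviations from group means ran from -0.128 to 0.301, with 8 over 0.1. Libraries with different numbers were not compared in this way, so these correlations cannot decide whether the numbers pair the libraries. With the replicate block Smarcc1 in Met2 against Primary2 was at an adjusted p of 0.0535, and Smarca4 in the pooled comparison at 0.0461.

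All tested genes called in Met2 against Primary2 numbered 1768, against 2830 with DESeq2, 215 with only the groups compared and 715 to 2150 with a library left out. In Met3 against Primary3 they numbered 2850 and 1372 to 3668 with a library left out. In Met2 against Met1 they numbered 2428, 14 with only the groups compared and 573 to 2527 with a library left out. In Met3 against Met2 they numbered 41, 588 with DESeq2, 85 with no filter, 4 with limma-voom, 0 with the replicate block, 0 with only the groups compared and 0 to 203 with a library left out. In Primary3 against Primary2 limma-voom called 1 gene and leaving out a library 0 to 2, and in the difference between rounds leaving out a library gave 0 to 17. RLE scaling moved the median log2 change of all genes by less than 0.1 in every comparison. Smarca2 had 441 counts over the metastasis and 625 over the primary libraries of rounds 2 and 3, spread unevenly over the libraries.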

Other observations

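Other ATP-dependent remodelers and Polycomb repressive complex 2, which deposits a silencing mark on histones, were measured in the same fit. Of 17 genes of other remodelers, 1 rose and 6 fell in the pooled comparison. Smarca5, the ATPase of ISWI complexes, had 132, 112 and 118 CPM in Met2 and 105, 126 and 121 CPM in Met3, against 204, 188 and 198 CPM in Primary2 and 195, 166 and 168 CPM in Primary3. All 6 metastasis libraries were lower, with a log2 change of -0.65 (SE 0.08, adjusted p = 0.000141 in edgeR). Smarca1, its paralog, had 0 counts in all 6 metastasis libraries and 242 counts over the 6 primary libraries, and was thus at least 73.5-fold lower (against a floor of 3 counts over the metastasis libraries, which covers counting error only, adjusted p = 0.000285), with 4 counts over the Met1 libraries. Chd7, a chromodomain remodeler, rose in the pooled comparison and in Met3 (adjusted p = 0.0103) but was not called in Met2 (adjusted p = 0.123). It had 20.6 ± 3.59 CPM in Met2 and 20.5 ± 2.48 CPM in Met3, against 15.2 ± 2.11 CPM in Primary2 and 11.8 ± 1.11 CPM in Primary3 (SD, n = 3 each, pooled log2 change 0.62, SE 0.13, adjusted p = 0.00324).

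By round, 0 of the 17 rose and 6 fell in Met2 against Primary2, and 1 rose and 3 fell in Met3 against Primary3, beside 11.8% and 19.1% of all tested genes called in either direction. Of the 10 genes of Polycomb repressive complex 2, 1 rose and 2 fell in the pooled comparison. Jarid2, which recruits the complex to chromatin, rose in the pooled comparison and in Met3 (adjusted p = 0.0125) but was not called in Met2 (adjusted p = 0.105). It had 25.8 ± 9.89 CPM in Met2 and 27.2 ± 3.32 CPM in Met3, against 17.4 ± 2.15 CPM in Primary2 and 14.2 ± 0.227 CPM in Primary3 (SD, n = 3 each, pooled log2 change 0.75, SE 0.15, adjusted p = 0.00341). Met2 rep 1 had 37.1 CPM of Jarid2, against 18.8 and 21.5 CPM in Met2 rep 2 and 3, and the pooled sides overlapped. A fit of Jarid2 without that library is not given here. In the pooled comparison the histone chaperones Rbbp7 and Rbbp4, shared with other complexes, fell by 0.39 (SE 0.10, adjusted p = 0.00884) and 0.29 (SE 0.09, adjusted p = 0.0233). Called in either direction were thus 7 of 17 and 3 of 10, beside 30.4% of all tested genes.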
